A study of Mus musculus with 6 samples.

Results

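The genes described here are 48 named parts of the WNT pathway: the enzymes and carriers that make WNT proteins secretable, WNT ligands, their receptors, the proteins that turn receptors over, secreted inhibitors, β-catenin with its destruction complex, and the TCF/LEF factors of the nucleus. They were listed with earlier results of these data known, and their rows were found by exact gene symbol. Where a gene had more than 1 probe set, the brightest on average was used. Of the 48, 47 had a probe set carrying only their symbol, out of 19938 genes so named on the arrays. Tcf7 had none and is not analysed here.

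WNT proteins are acylated in the endoplasmic reticulum by porcupine, carried to the cell surface by Wntless, and bound there by a Frizzled receptor together with LRP5 or LRP6. Binding stops a complex of AXIN, APC, GSK3 and casein kinase from marking β-catenin for degradation, so that β-catenin enters the nucleus and joins TCF/LEF factors on DNA. In mouse embryonic stem cells this signalling supports self-renewal, largely because β-catenin relieves the repression that TCF7L1 exerts on genes of the naive state.

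Total RNA came from embryonic stem cells of the mouse line E14, grown on adherent plates. Each of 3 groups had 2 arrays: cells given a pool of non-specific siRNAs (control), cells given siRNA 1 against p/CIP and cells given siRNA 2 against p/CIP. p/CIP, encoded by Ncoa3, is a coactivator of nuclear receptors, and the study asked which transcripts depend on it. An siRNA lowers its target and does not remove it, and the labels name neither the time of harvest nor whether the replicates were separate cultures, so the p-values describe the spread among these arrays, part of which may be technical.

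Values are log2 values deposited by the authors, 1 per probe set and array, and a difference of 1 is read as a doubling. The medians of the 6 arrays over all probe sets lay between 7.24 and 7.38. Array siRNA 1 replicate 2 had the narrowest spread, an interquartile range over genes of 3.13 against 3.33 to 3.45 on the others. Both siRNAs lowered their target: Ncoa3 stood at 35.6% of control over the 4 knockdown arrays (log2 change -1.49, standard error 0.0964, limma adjusted p = 0.0287). The change was -1.49 with each siRNA, with a limma adjusted p of 0.0452 for siRNA 1 and 0.0742 for siRNA 2. The 10 markers of undifferentiated stem cells averaged 12.30 to 12.42 on control arrays and 12.01 to 12.18 on knockdown arrays, with 9 of 10 lower after knockdown. Of the markers of other cells, 9 of 10 for extraembryonic endoderm were above control (list mean 7.57 to 7.96 on control arrays, 7.72 to 8.19 on knockdown arrays), as were 7 of 8 for trophoblast (8.69 to 8.75, against 8.65 to 8.97). The trophoblast count differed between the siRNAs, with 7 of 8 above control for siRNA 1 (median 0.24) and 3 of 8 for siRNA 2 (median -0.09). The same count was 5 of 8 for primitive streak and mesoderm (7.61 to 7.67, against 7.62 to 7.84), 2 of 8 for neural ectoderm (7.96 to 7.97, against 7.87 to 7.95) and 5 of 8 for fibroblast feeders (7.38 to 7.52, against 7.19 to 7.64). The part of these shifts in the values below was not tested. In such bulk RNA, fewer cells of a type and less RNA per cell cannot be told apart.

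With both siRNAs against control, WNT pathway genes lay close to control as a group, and a few stood out. Porcn, for the porcupine acyltransferase, fell to 56.9% of control, and Sfrp1, for a secreted inhibitor, was lower by a similar amount but passed only in settings other than the one used throughout, such as replicate number as a block. The receptor gene Fzd5 was lower and the nuclear effector gene Lef1 higher on all 4 knockdown arrays than on either control array, and neither passed. β-catenin (Ctnnb1), the destruction complex and the WNT-induced gene Axin2 lay within 0.14 of control on the log2 scale.

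The members were chosen with earlier results of these data known, so the counts that follow describe them and are not a test. In counts, 1 of 47 members was called lower at a limma adjusted p under 0.05, against 0.0702% of all genes, and 0 of 47 were called higher, against 0% of all genes. With replicate number as a block, 2 of 47 were called lower, against 0.311% of all genes, and 0 higher, against 0.0301%. At an unadjusted p under 0.05, limma had 4 members lower (all genes 4.86%) and 1 higher (all genes 3.86%). The median log2 change over the 47 was 0.04, with 22 below and 25 above control, beside a median of 0.01 over all genes, of which 47.7% lay below control. On all 4 knockdown arrays 6 members were lower than on both control arrays (all genes 10.1%) and 3 were higher (all genes 8.83%), shares close to or below those of all genes. Only 5 of the 47 were more than 0.25 from control in either direction: Sfrp1, Porcn and Fzd5 lower, and Lef1 and Tcf7l2 higher.

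**Figure D1:**
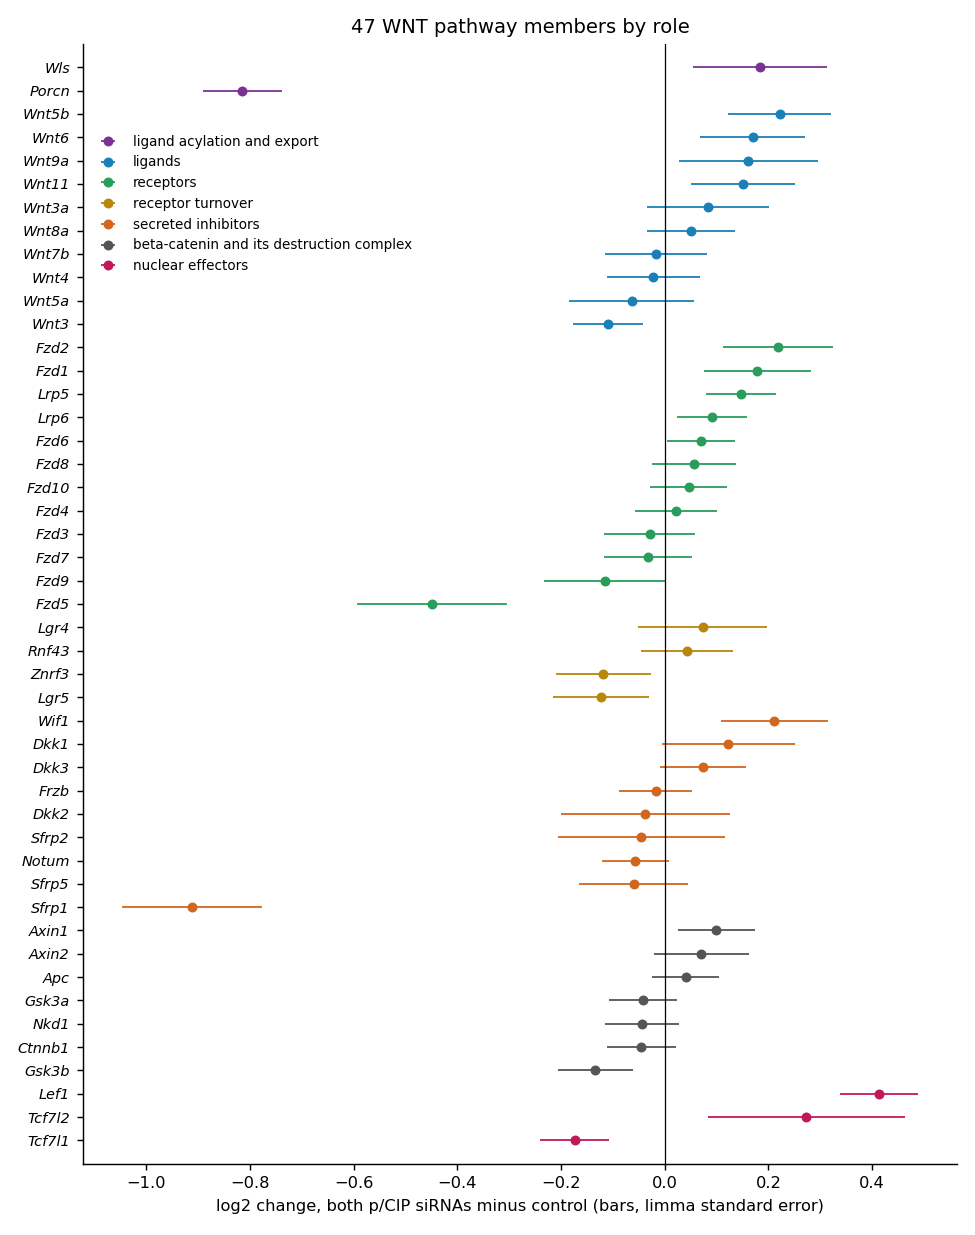
Log2 change of each of the 47 measured members, as the mean of both p/CIP siRNAs minus control, in 7 roles; bars are limma standard errors and the vertical line marks no change. Porcn at -0.81 and Sfrp1 at -0.91 stand away from the other members, 42 of which lie within 0.25 of control.

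Among the genes that prepare ligands for secretion, Porcn encodes the membrane enzyme that attaches the fatty acid WNT proteins need for export and receptor binding. Porcn read 10.31 and 10.20 in control cells, 9.32 and 9.44 after siRNA 1 and 9.54 and 9.47 after siRNA 2. All 4 knockdown arrays lay well below both controls, and the gap between groups was several times the gap within any of them. The fall was 1.76-fold over both siRNAs (log2 change -0.81, standard error 0.0764, 95% interval -0.996 to -0.633, limma adjusted p = 0.0347), and 7 of the 19938 genes had a smaller p. With siRNA 1 it was -0.88 (adjusted p = 0.0452), and with siRNA 2 it was -0.75, which did not pass (adjusted p = 0.103, and 0.0523 with the replicate block). Without the block no gene passed for siRNA 2, the target Ncoa3 included (limma adjusted p = 0.0742). The siRNAs share their control arrays, and between them Porcn differed by 0.12 (95% interval -0.09 to 0.33). The array codes in the labels put 1 array of each group in a lower and in a higher run of numbers, and within these the change was -0.82 and -0.81.

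The size of the Porcn change was steady and its call was not. Over 16 alternative settings the pooled change stayed between -0.87 and -0.76, with limma adjusted p from 0.00657 to 0.784. The call ended, along with that of every other gene, when either control array or either siRNA 2 array was left out, which leaves a single array in that group. For both siRNAs, limma called 0 of all genes with the array code as a block, every probe set tested or an unmoderated linear model. Porcn's call ended there with the rest (adjusted p = 0.157, 0.207 and 0.366). It held without the array of narrow spread, siRNA 1 replicate 2 (0.0283), although the call for siRNA 1 alone then ended (0.0833).

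Wls encodes Wntless, the carrier that takes acylated WNT proteins to the cell surface. Its probe set read 8.68 and 9.06 in control cells, 8.81 and 8.90 after siRNA 1 and 9.11 and 9.40 after siRNA 2. Only the siRNA 2 arrays were above both controls, and the siRNA 1 arrays lay between the controls. Wls did not pass for both siRNAs (0.18, standard error 0.13, limma adjusted p = 0.708). Its difference between siRNA 2 and siRNA 1 was the largest of any member, at 0.40 (95% interval 0.04 to 0.75, limma adjusted p = 0.718).

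**Figure D2:**
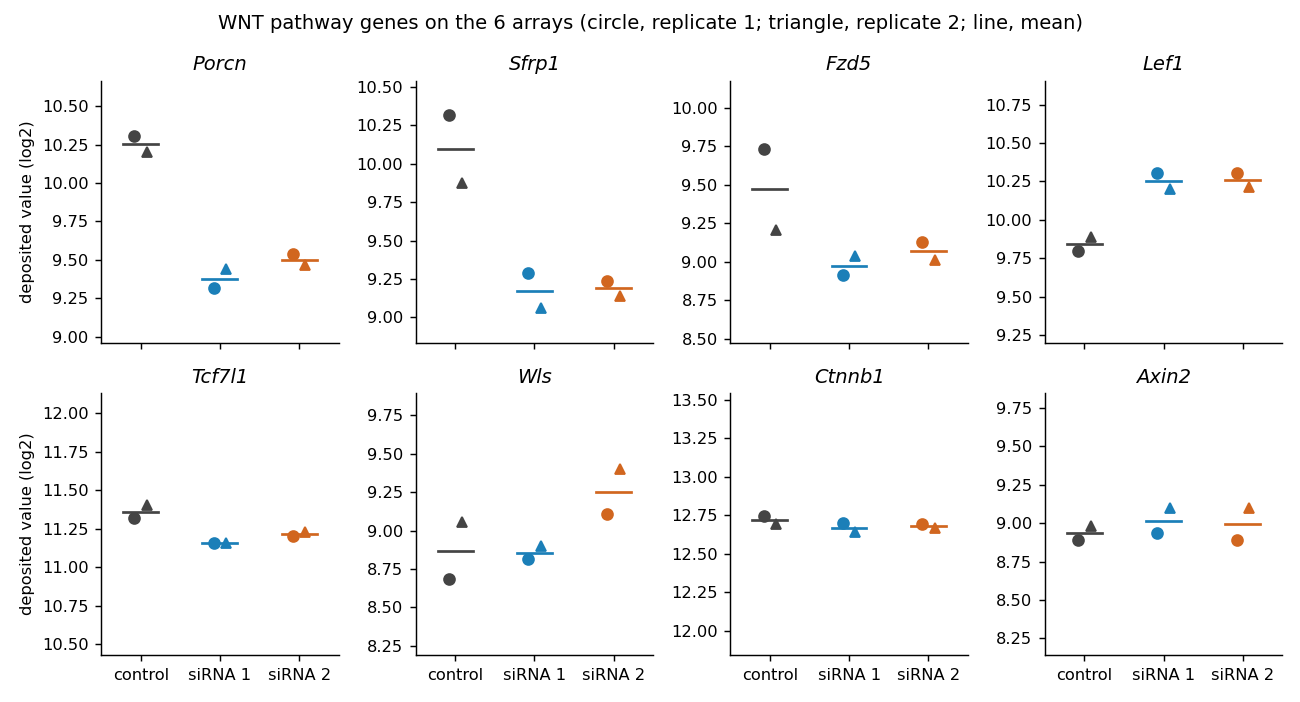
Deposited log2 value of 8 members on each array (circles, replicate 1; triangles, replicate 2; lines, group means), with every panel spanning the same log2 height. Porcn, Sfrp1 and Fzd5 are lower and Lef1 higher on all 4 knockdown arrays than on both controls, Tcf7l1 is lower by a small step, Wls is highest with siRNA 2, and Ctnnb1 and Axin2 overlap between groups.

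None of the 10 WNT ligand genes passed in any of the 4 contrasts by limma, with or without the replicate block; at an unadjusted p under 0.05 there were 0 for both siRNAs and 1, higher, for siRNA 1. Their pooled changes ran from -0.11 to 0.22 with a median of 0.07, and 6 of 10 were above control. Wnt5b, which encodes a ligand known mainly for β-catenin-independent signalling, had the smallest p of the 10. It read 7.22 and 7.53 in control cells, 7.66 and 7.69 after siRNA 1 and 7.48 and 7.57 after siRNA 2. The siRNA 1 arrays lay above both controls and an siRNA 2 array lay between the controls, so the groups overlapped (0.22, standard error 0.0992, limma adjusted p = 0.591).

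Wnt6 read 6.92 and 7.12 in control cells, 7.09 and 7.30 after siRNA 1 and 7.11 and 7.27 after siRNA 2, so the groups overlapped (0.17, limma adjusted p = 0.668). Wnt3, whose ligand acts through β-catenin in the early embryo, read 7.70 and 7.73 in control cells, 7.60 and 7.52 after siRNA 1 and 7.67 and 7.63 after siRNA 2. Wnt3 was the only ligand gene with every knockdown array on the same side of both controls, by a narrow margin (-0.11, limma adjusted p = 0.674). The other 7 ligand genes (Wnt3a, Wnt4, Wnt5a, Wnt7b, Wnt8a, Wnt9a and Wnt11) had pooled changes from -0.06 to 0.16, and for none of them did the knockdown arrays lie apart from the controls. Wnt4 had a second, dimmer probe set, which read 8.31 and 8.56 on control arrays and from 8.28 to 8.87 on knockdown arrays, again overlapping.

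Promoter windows, from 250 bases before to 50 after a transcript start, were taken from RefSeq (GRCm38.p6) to show where a TCF/LEF motif lies beside these genes. The table held 41 windows for 31 of the 48 members, and Porcn and Sfrp1 were not among them. The motif CTTTGAT, searched on both strands, was in 2 of the 41 windows (4.88%), against 3.73% of all 32851 windows. Both belong to ligand genes, 1 of 3 windows of Wnt5b and 1 of 2 of Wnt11, and are printed 5′ to 3′ on the gene's strand with the match in capitals.
Wnt5b, chr6:119449421-119449487, minus strand: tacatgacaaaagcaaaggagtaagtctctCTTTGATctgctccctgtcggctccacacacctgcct
Wnt11, chr7:98835031-98835097, plus strand: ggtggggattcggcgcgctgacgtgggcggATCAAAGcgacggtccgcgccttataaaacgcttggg
The Wnt5b match begins at base -71 from the start and reads forward, and the Wnt11 match begins at -51 and is the reverse complement. An Esrrb-type motif, TCAAGGTCA, was in 0 of the 41 member windows, where 0.423% of all windows held it. These are matches of letters in short windows, not binding sites.

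Of the 12 receptor genes, 8 were above control and 4 below (median 0.05, range -0.45 to 0.22), and limma called 0 in any contrast, with 1 lower at an unadjusted p under 0.05 for both siRNAs. That 1 was Fzd5, a Frizzled receptor gene. Fzd5 read 9.74 and 9.21 in control cells, 8.91 and 9.04 after siRNA 1 and 9.13 and 9.01 after siRNA 2. All knockdown arrays were below both controls, yet the control arrays stood further apart than control replicate 2 stood from the knockdown arrays. The pooled change was -0.45 (standard error 0.145, limma adjusted p = 0.448, and 0.181 to 1 over the alternatives). It was -0.18 without control replicate 1 and -0.71 without control replicate 2, so a single control array set its size.

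The co-receptor genes Lrp5 and Lrp6 were a little higher on all knockdown arrays. Lrp5 read 9.78 and 9.85 in control cells, 9.96 and 10.02 after siRNA 1 and 9.95 and 9.93 after siRNA 2. No knockdown array overlapped the controls, and the step was small (0.15, 95% interval -0.01 to 0.31, limma adjusted p = 0.597). Lrp6 was at 0.09 (95% interval -0.07 to 0.25, limma adjusted p = 0.72).

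Fzd2 read 8.76 and 8.92 in control cells, 8.81 and 9.03 after siRNA 1 and 9.07 and 9.31 after siRNA 2. The siRNA 2 arrays were the highest and the siRNA 1 arrays overlapped the controls (0.22 pooled, limma adjusted p = 0.612). Fzd7 encodes a Frizzled receptor prominent in undifferentiated stem cells. It read 11.31 and 11.19 in control cells, 11.19 and 11.00 after siRNA 1 and 11.36 and 11.31 after siRNA 2. For Fzd7 the siRNAs lay on either side of control (-0.15 and 0.09), and they differed by 0.24 (95% interval 0.01 to 0.47, limma adjusted p = 0.718). The other 8 receptor genes, namely Lrp6 and the Frizzled genes Fzd1, Fzd3, Fzd4, Fzd6, Fzd8, Fzd9 and Fzd10, ranged from -0.12 to 0.18.

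RNF43 and ZNRF3 are ubiquitin ligases that remove Frizzled from the surface, and LGR4 and LGR5 are R-spondin receptors that hold them back. None of the 4 genes passed in any contrast by limma, 1 had an unadjusted p under 0.05 (Lgr4, between the siRNAs), and their pooled changes lay between -0.12 and 0.07. Lgr4 read 11.17 and 11.14 in control cells, 11.26 and 10.84 after siRNA 1 and 11.49 and 11.33 after siRNA 2. The siRNA 2 arrays were above both controls, while the siRNA 1 arrays fell on either side of them. Lgr4 differed by 0.36 between siRNA 2 and siRNA 1 (95% interval 0.02 to 0.70, limma adjusted p = 0.718).

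Lgr5 read 6.37 and 6.49 in control cells, 6.30 and 6.56 after siRNA 1 and 6.23 and 6.15 after siRNA 2 (-0.12 pooled, limma adjusted p = 0.729). Both siRNA 2 arrays and 1 siRNA 1 array were below both controls, and the other siRNA 1 array was above them. Znrf3 read 9.91 and 9.80 in control cells, 9.87 and 9.64 after siRNA 1 and 9.77 and 9.66 after siRNA 2, overlapping through an siRNA 1 array (-0.12, limma adjusted p = 0.734). Rnf43 was at 0.04.

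Among the 9 genes for secreted inhibitors, Sfrp1 stood apart from the rest. SFRP1 carries a Frizzled-like domain and binds WNT proteins outside the cell. Sfrp1 read 10.31 and 9.87 in control cells, 9.29 and 9.06 after siRNA 1 and 9.24 and 9.14 after siRNA 2. The controls differed from each other by more than any knockdown pair did, and even so the lower control lay above every knockdown array. The pooled change was -0.91 (1.88-fold lower, standard error 0.134, 95% interval -1.23 to -0.59, limma adjusted p = 0.134), and 0.0216 with the replicate block. Over the 16 alternatives adjusted p ran from 0.0216 to 1.

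The siRNAs gave Sfrp1 the same size of change, -0.92 and -0.90, with a difference of 0.01 (95% interval -0.35 to 0.38). For siRNA 1 the adjusted p was 0.136, and 0.0261 with the replicate block; for siRNA 2 it was 0.304, and 0.0523 with the block. Within equal replicate numbers Sfrp1 was lower by 1.05 and by 0.78 on the log2 scale. Within the runs of array codes it was lower by 1.16 and by 0.66. The pooled change was -0.69 without control replicate 1 and -1.13 without control replicate 2.

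Of the other 8 inhibitor genes, none passed by limma in any contrast, and 2 are given in full by the rule for naming genes. Wif1, for a secreted WNT-binding protein, read 6.49 and 6.38 in control cells, 6.47 and 6.79 after siRNA 1 and 6.70 and 6.64 after siRNA 2. An siRNA 1 array lay between the controls and the other 3 knockdown arrays above them (0.21, limma adjusted p = 0.612). Dkk1, for an inhibitor that binds LRP5 and LRP6 and is itself induced by WNT, read 7.80 and 8.12 in control cells, 8.04 and 8.38 after siRNA 1 and 7.97 and 7.93 after siRNA 2. The groups overlapped for Dkk1 (0.12, limma adjusted p = 0.794). Sfrp2, Sfrp5, Frzb, Dkk2, Dkk3 and Notum, the last encoding an enzyme that removes the WNT fatty acid, had pooled changes from -0.06 to 0.07.

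The 7 genes for β-catenin, its destruction complex and the Dishevelled antagonist Nkd1 lay close to control, from -0.13 to 0.10, with 0 called in any contrast by limma and 0 at an unadjusted p under 0.05 for both siRNAs. Ctnnb1 read 12.74 and 12.70 in control cells, 12.70 and 12.64 after siRNA 1 and 12.69 and 12.66 after siRNA 2. The groups overlapped, and the interval of the change was narrow (-0.05, 95% interval -0.20 to 0.11, limma adjusted p = 0.856). Gsk3b, for a kinase that marks β-catenin for degradation, read 10.23 and 10.22 in control cells, 10.11 and 10.06 after siRNA 1 and 10.03 and 10.17 after siRNA 2. Gsk3b was lower on every knockdown array, by little (-0.13, 95% interval -0.31 to 0.04, limma adjusted p = 0.651).

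Axin2 encodes a scaffold of the destruction complex and is a widely used readout of β-catenin signalling. Axin2 read 8.89 and 8.98 in control cells, 8.93 and 9.10 after siRNA 1 and 8.89 and 9.10 after siRNA 2. The order of the arrays followed the replicate number more than the group, with replicate 2 higher in all 3 groups. Its change was 0.07 (95% interval -0.15 to 0.29, limma adjusted p = 0.835), so a rise of up to 0.29 or a fall of 0.15 would lie inside its error. Axin1, for the constitutive scaffold, read 9.99 and 9.91 in control cells, 10.08 and 10.04 after siRNA 1 and 10.11 and 9.98 after siRNA 2, with a single overlap (0.10, limma adjusted p = 0.723). Apc, Gsk3a and Nkd1 lay between -0.04 and 0.04.

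The 3 measured genes for nuclear effectors lay on both sides of control. LEF1 acts mainly as an activator with β-catenin, and its gene is itself induced by WNT. Lef1 read 9.80 and 9.89 in control cells, 10.31 and 10.20 after siRNA 1 and 10.30 and 10.22 after siRNA 2. All knockdown arrays were higher, and replicates agreed closely. The difference was 1.33-fold (0.41, standard error 0.0748, 95% interval 0.24 to 0.59), with a limma adjusted p of 0.186, and of 0.0551 to 1 over the alternatives, so Lef1 did not pass in any of them. It was 0.41 with siRNA 1 and 0.42 with siRNA 2.

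TCF7L1, the main TCF of embryonic stem cells, works chiefly as a repressor. Tcf7l1 read 11.32 and 11.40 in control cells, 11.16 and 11.16 after siRNA 1 and 11.20 and 11.22 after siRNA 2. It was lower on each knockdown array, by a small step (-0.17, 95% interval -0.33 to -0.01, limma adjusted p = 0.542). Tcf7l2 read 9.18 and 9.52 in control cells, 9.53 and 9.91 after siRNA 1 and 9.25 and 9.81 after siRNA 2. In every group of Tcf7l2 the second replicate was the higher, by more than the pooled change (0.27, standard error 0.19, limma adjusted p = 0.705). Both siRNA 1 arrays lay above both controls, the nearer barely (0.37 for siRNA 1, limma adjusted p = 0.497). An siRNA 2 array lay between the controls.

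**Figure D3:**
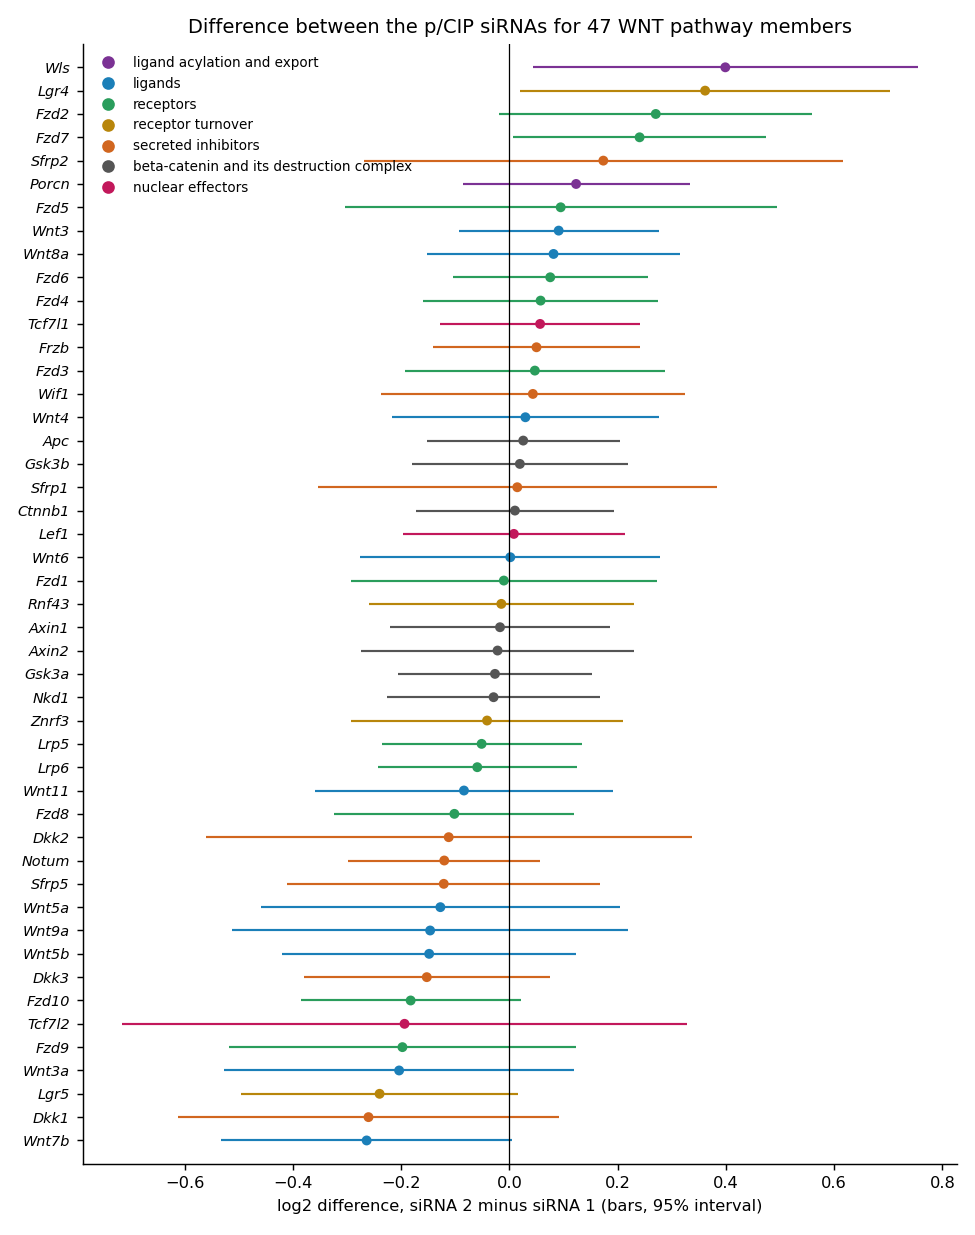
Log2 difference between siRNA 2 and siRNA 1 for the 47 members, ordered by size, with 95% intervals from the limma fit and colours for role. The intervals of Wls, Lgr4 and Fzd7 lie just above 0, and those of the other members include it.

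Between the siRNAs, limma called 0 of 47 members, against 0% of all genes, and 0 with the replicate block, against 0.0752%. At an unadjusted p under 0.05 there were 3, against 6.9% of all genes in either direction. These were Wls, Lgr4 and Fzd7, all higher with siRNA 2, while 25 of 47 members were lower with siRNA 2 (all genes 58.1%). The smallest adjusted p of a member was 0.718, and 0.195 with the replicate block. The median half-width of the 95% intervals, which are not adjusted over genes, was 0.247. Differences below about that size could not be told from no change for a typical member. A call at the adjusted threshold took more, and Wls at 0.40 did not pass.

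Each siRNA was also set against the shared controls alone. For siRNA 1, limma called 1 of 47 members lower (Porcn), against 0.0702% of all genes, and 0 higher, against 0%. The replicate block made it 2 lower (Porcn and Sfrp1), against 0.963%, and 0 higher, against 0.246%. Unadjusted, 4 were lower at a p under 0.05 (all genes 6.37%) and 2 higher (all genes 5.78%). Below both controls on both siRNA 1 arrays were 6 members (all genes 20.5%), and above them 8 (all genes 22.9%); 21 of 47 means were below control (all genes 44.5%). For siRNA 2, limma called 0 of 47 in either direction, against 0% of all genes, and 0 with the block, against 0.11% lower and 0.0201% higher. Ncoa3 itself, at -1.49, did not pass for siRNA 2 without the block (limma adjusted p = 0.0742). Unadjusted, 3 were lower at a p under 0.05 (all genes 2.99%) and 3 higher (all genes 2.25%). Below both controls on both siRNA 2 arrays were 13 members (all genes 19.8%), and above them 10 (all genes 16%); 23 of 47 means were below control (all genes 52.8%).

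Other genes of the pathway were read from lists set up beside the members, and limma without a block called none of them in any contrast. Of 13 further ligand and R-spondin genes, 10 were above control (median 0.12) and 1 had an unadjusted p under 0.05, with the smallest p for Wnt10a (0.34, limma adjusted p = 0.543) and Wnt2 (0.22, adjusted p = 0.592). Of 10 further inhibitor genes 5 were above control (median 0.01), with 1 lower and 2 higher at an unadjusted p under 0.05. Apcdd1, for a membrane-bound WNT inhibitor, was at -0.27 (limma adjusted p = 0.439), and Kremen2, for a DKK receptor, at 0.24 (adjusted p = 0.546). Of 14 further surface and polarity genes 11 were above control (median 0.07), with 1 in each direction at that unadjusted p. Among them were Ptk7, for a co-receptor of planar polarity (0.24, limma adjusted p = 0.371), and Ryk, for a WNT-binding receptor (-0.19, adjusted p = 0.463).

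Inside the cell, 8 of 18 further cytoplasmic genes were above control (median -0.03) and 1, lower, had an unadjusted p under 0.05; Ppp2r5e, for a regulatory subunit of protein phosphatase 2A, was at -0.30 (limma adjusted p = 0.513) and Csnk1e, for casein kinase 1 epsilon, at 0.16 (adjusted p = 0.586). Of 16 nuclear cofactor genes 9 were below control (median -0.01), with 3 lower and 1 higher at that unadjusted p. The smallest p values there belonged to genes of the Groucho/TLE family, corepressors of TCF factors. Tle6, a shortened member of the family, read 8.01 and 8.03 on control arrays and 7.72 to 7.78 after knockdown (-0.26, limma adjusted p = 0.308). Tle3 read 10.77 and 10.78 on control arrays and 10.52 to 10.61 after knockdown (-0.23, adjusted p = 0.38).

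Genes known to be induced by WNT lay on both sides of control in the pooled contrast, and their medians for the siRNAs had opposite signs. Of 19 measured, 10 were below and 9 above control, with a median of -0.01 beside 0.01 over all genes, and 1 lower and 2 higher had an unadjusted p under 0.05. For siRNA 1, 6 of the 19 were below control (median 0.05; all genes 44.5% below), and for siRNA 2, 13 were (median -0.06; all genes 52.8% below). With siRNA 2, 10 of the 19 lay below both controls on both arrays, against 19.8% of all genes. With siRNA 1 this held for 1 of the 19 (all genes 20.5%), and 2 lay above both controls (all genes 22.9%). Set against siRNA 1, 17 of the 19 were lower with siRNA 2 (median -0.10), against 58.1% of all genes. Over all genes the median difference was -0.0262, and -2e-04 without siRNA 1 replicate 2, the array of narrow spread. The part of that array in the lean of the 19 was not tested. Between the siRNAs limma called 0 of them, and 3 were lower at an unadjusted p under 0.05. This lean was not particular to them, and not every list shared it. It was 11 of 13 for the further ligand and R-spondin genes and 8 of 10 for the further inhibitors. Among markers it was 8 of 10 for extraembryonic endoderm and 7 of 8 for trophoblast. It was 6 of 18 for the further cytoplasmic genes and 3 of 10 for undifferentiated stem cell markers. The count was 25 of 47 for the members, 7 of 16 for nuclear cofactors and 6 of 14 for surface and polarity genes. Among the remaining markers it was 5 of 8 for primitive streak and mesoderm, 3 of 8 for neural ectoderm and 2 of 8 for fibroblast feeders. The trophoblast gene Cdx2 is among the 19 WNT-induced genes, and the part of the trophoblast markers in their difference was not tested. Lef1 and Apcdd1 had the smallest p of the 19 in the pooled contrast, in opposite directions, and 8 of the 19 are also members described above. Genes of the naive state that TCF7L1 is known to repress lay on the same side of control: Esrrb, Klf2, Nanog, Tfcp2l1, Nr5a2 and Tcl1 were all lower on the 4 knockdown arrays than on both controls (6 of 6, where 10.1% of all genes did so). This list, like the others, was chosen with earlier results of these data known, so the count is a description and not a test. The median of the 6 genes was -0.37. Esrrb, for an orphan nuclear receptor, was at -0.50 (limma adjusted p = 0.186) and passed with the replicate block (0.0386); the other 5 did not pass with or without it. Esrrb and Nanog are also among the markers of undifferentiated stem cells, 9 of 10 of which were lower after knockdown, and the part of that shift in this result was not tested.

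**Figure D4:**
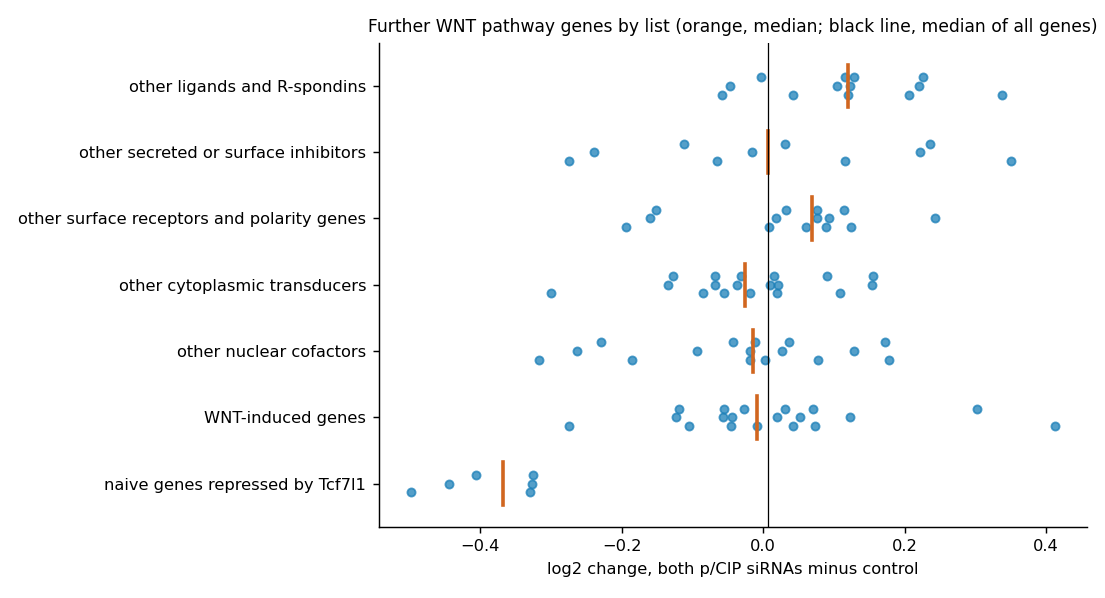
Log2 change (both p/CIP siRNAs minus control) of further WNT pathway genes, each point a gene, by list; orange bars are list medians and the black line is the median of all genes, 0.01. In this pooled contrast the WNT-induced genes, 8 of which are also members, lie on both sides with a median of -0.01 (0.05 for siRNA 1 and -0.06 for siRNA 2), while the 6 naive genes known to be repressed by TCF7L1 lie between -0.50 and -0.32.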

How the data were processed

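RNA of 6 samples was measured on 1-colour expression arrays, 2 per group. The deposited table gives log2 values for 35556 probe sets; the log2 scale was inferred from their range of 2.69 to 14.6. The submitters' processing notes name Partek. Its version, the background correction and the normalization behind these values: not given in the sources used here. No background or detection values were used, so whether dim probe sets lie above background is unknown. Separately, the 2 arrays per group limit precision. Symbols came from GEO's platform annotation (1 symbol for 21789 probe sets, several for 1621, which were left unnamed, and none listed for 12146).

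All 19938 genes and 3 groups were fitted together in limma 3.58.1 under R 4.3.3 (lmFit, eBayes; 3 residual and 3.84 prior degrees of freedom), after the fit was tested on simulated data. Two-sided p-values were adjusted over all genes by the Benjamini-Hochberg method, and a gene was called under 0.05. Standard errors and intervals are limma's.

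The members and lists were chosen with earlier results of these data known. Values on all arrays are given for members called in any contrast, replicate block or not, for the 3 of smallest p in each role, for those with an unadjusted p under 0.05 between the siRNAs, and for Ctnnb1, Axin2 and Tcf7l1; from each other list, genes called or the 2 of smallest p are named. Lrp6 and other genes named with a single value fall outside this rule and were named to account for their group.

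Between arrays of equal replicate number, deviations from the group means correlated across genes at 0.464, 0.407 and 0.461 in the 3 pairs of groups, all over 0.1. The numbers were treated as pairing only in the replicate block. The main fit had no block, so its p-values and intervals leave the pairing out. The pairing comes from the data, and with 2 arrays per group the check is weak. Alternatives were a replicate block, an array code block, other scalings, filters, probe set rules and variance models, and each array left out.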

Additional observations from a re-analysis of the deposited data

Results flagged for a closer look

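Fzd10, for a Frizzled receptor, was singled out because both siRNA 1 arrays (8.81 and 8.95) lay above both controls (8.74 and 8.75) and both siRNA 2 arrays (8.66 and 8.74) lay below them, the nearer of them barely. The difference between siRNA 2 and siRNA 1 was -0.18 (95% interval -0.39 to 0.02, limma adjusted p = 0.73), which did not pass.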

How the results depend on the processing

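For both siRNAs, the 1 member called became 2 with the replicate block and with a trended, robust variance model, and 0 with the array code block, with all probe sets tested and with an unmoderated linear model; it was 0 to 1 with any 1 array left out. For siRNA 1 the 1 became 2 and 0 under the same settings, 0 when only the groups compared were fitted, and 0 to 2 with any 1 array left out. For siRNA 2 the 0 became 1 with only genes above the median level (31 of 47 members tested), where 10 of 9969 genes were called lower and 1 higher. It also became 1 with the trended, robust model, which called 15 of 19938 genes lower and 2 higher. That model called 57 genes lower and 14 higher for both siRNAs, and 127 lower and 23 higher for siRNA 1. Between the siRNAs the count of members stayed 0 in every setting with 2 arrays in each group. The gene added for both siRNAs and for siRNA 1 was Sfrp1, and for siRNA 2 it was Porcn (adjusted p = 0.0446 and 0.0217). The 9 members without overlap became 15 after quantile normalization, 14 after cyclic loess, and 10 to 28 with any 1 array left out, where fewer arrays make overlap rarer by construction. The share of all genes without overlap was not taken in these settings, so a shift of the members cannot be told from a shift of all genes. The replicate block changed no member's call other than that of Sfrp1. With the array code block, all probe sets tested or the unmoderated model, limma called 0 of all genes in each contrast. The members' median change for both siRNAs stayed between 0.01 and 0.05, and no member that passed in any setting turned direction. With 2 arrays per group, changes smaller than about 0.214 on the log2 scale, the median half-width of a member's 95% interval for both siRNAs, could not be resolved. These intervals are not adjusted over genes. A call took a larger change, and Lef1 at 0.41 did not pass. For the 16 members at or below the median gene level of 7.81 no background values were used here, so their signal over background is unknown. Other causes of these shifts in counts were not tested.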

Other observations

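Outside the 47 members, the pathway gene with the smallest p between the siRNAs was Ryk, chosen after its values were seen; Cdx2 had a larger difference (-0.47, limma adjusted p = 0.633), and did not pass either. Ryk encodes a receptor that binds WNT proteins through a domain shared with WIF1. Ryk read 11.31 and 11.29 in control cells, 10.90 and 10.88 after siRNA 1 and 11.32 and 11.32 after siRNA 2. The siRNA 1 arrays were below all others, and the siRNA 2 arrays were level with control. Its difference between siRNA 2 and siRNA 1 was 0.43 (95% interval 0.25 to 0.60, limma adjusted p = 0.376), which did not pass over all genes.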
